A study of Homo sapiens with 12 samples.

Results

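MDA-MB-468 is an established cell line from a triple-negative breast cancer, a tumour type that lacks both hormone receptors and amplified HER2. The comparison set 3 libraries of this line with sgPACT-2, a CRISPR-Cas9 guide against PACT, beside 3 libraries with sgNTA, the control guide used in the same line. These were 6 of the 12 libraries of the series. The other 6 came from HCC1806, a second triple-negative line, with sgPACT-2 and with another control guide, sgC1. The 6 libraries of MDA-MB-468 were chosen by their labels alone, and all genes of the table were considered. The labels name no drug, no time after the guide was introduced and no clone. They also do not say whether the 3 libraries of a group came from separate cultures, so p-values measure the spread between these libraries, which may be technical.

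PACT, encoded by PRKRA, is a protein that binds double-stranded RNA and pairs with itself and with PKR, the kinase encoded by EIF2AK2. Active PKR phosphorylates the translation factor eIF2alpha, which lowers general protein synthesis and lets the messenger RNA of ATF4 and of some other stress factors be translated. The genes these factors induce are called the integrated stress response (ISR). PKR signalling is also linked to NF-kappaB, the transcription factor family behind many inflammatory genes. By its title the series is about PACT as a brake on PKR in triple-negative breast cancer, and the comparison asks how the transcriptome of this line differed with the guide against PACT.

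Total RNA was depleted of ribosomal RNA and sequenced, and the values are counts of reads per gene. The 6 libraries held 34581754 to 44790741 counts. Levels are given as counts-per-million (CPM) after TMM scaling, which corrects for library size and composition. CPM are not divided by gene length, so they compare a gene between libraries and not 1 gene with another. A gene was called changed when its adjusted p was under 0.05 in edgeR's quasi-likelihood test (two-sided, Benjamini-Hochberg over all genes tested), fitted to these 6 libraries. Fold changes are log2 values, sgPACT-2 minus sgNTA, with their standard errors (SE), and n is 3 libraries a group throughout. Epithelial genes marked the libraries. The 14 basal and general epithelial markers summed to 12100 to 12400 CPM in control and 13200 to 13800 CPM in sgPACT-2 libraries. EGFR alone gave 7110 to 9440 CPM of these sums. Among the basal keratin genes, KRT5 read 871 to 1180 CPM and KRT6A 2.39 to 3.62 CPM. The 6 squamous markers summed to 8.60 to 10.5 CPM in controls and 8.53 to 9.16 CPM with sgPACT-2, mostly from IVL (6.42 to 7.87 CPM). Of 5 luminal markers, FOXA1 (51.3 to 59.5 CPM; marker levels are without TMM scaling) and GATA3 (at least 42.2 CPM) were expressed, ESR1, which encodes the estrogen receptor, lay between 5.50 and 6.86 CPM, and PGR was at no more than 1 count in any library. The 7 fibroblast markers summed to 18.3 to 20.0 CPM in controls and 17.4 to 19.9 CPM with sgPACT-2, mostly from COL1A1 (15.7 to 18.9 CPM), and DCN was at 0 in all 6. The 5 endothelial markers summed to 14.8 to 20.0 and 13.6 to 17.2 CPM, mostly from KDR (10.5 to 16.2 CPM). The 7 leukocyte markers summed to 78.6 to 95.6 CPM in controls and to 71.3 to 74.3 CPM with sgPACT-2, lower in every sgPACT-2 library. CD14 alone made nearly all of that sum (71.1 to 95.2 CPM), and the other 6 stayed under 1 CPM. The part of these markers in the results was not tested.

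PRKRA (ENSG00000180228, chromosome 2, 178431414 to 178451512, minus strand in GRCh38) was read first, since it is the gene the guide targets. Its level was 36.9, 41.9 and 41.96 CPM in the sgNTA libraries and 34.9, 33.1 and 37.8 CPM in the sgPACT-2 libraries. The groups overlapped, and the change did not pass (log2 fold change -0.19, SE 0.082, adjusted p = 0.383). It was negative in all 17 alternative fits and passed in 1 of them (lowest adjusted p = 0.0413). Cutting a gene with Cas9 can end its protein without lowering its RNA. How far the guide cut PRKRA in these libraries was not tested. No protein data were used, and the labels give the guide and not the loss of PACT. In HCC1806 with the same guide, fitted alone in edgeR, PRKRA fell (log2 fold change -1.06, adjusted p = 0.00311). EIF2AK2 measured 150.5, 157 and 161 CPM with sgNTA and 151, 150.1 and 172 CPM with sgPACT-2 (log2 fold change 0.012, SE 0.068, adjusted p = 0.977). On a list of 15 double-stranded RNA binding proteins that also holds ADAR, DHX9, DICER1 and TARBP2, 0 passed in edgeR and 0 in DESeq2, while 2 had an unadjusted p under 0.05: PRKRA itself and CDKN2AIP (log2 fold change 0.23). Of 12 genes for eIF2 kinases, eIF2 subunits and the exchange factor eIF2B, 0 passed in edgeR and 0 in DESeq2, and 0 had an unadjusted p under 0.05 (range -0.094 to 0.15).

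Of 21404 genes tested, 323 (1.51%) were changed. With sgPACT-2, 259 (1.21%) were higher and 64 (0.299%) lower. These shares are the background for the counts of list members below, whose lists were chosen with earlier results of these data known. The rises were also the larger changes: 54 of the risers and 3 of the fallers differed by a log2 value of 1 or more, and the medians were 0.53 and -0.36. Over all genes tested the median was -0.0041 and 49.0% of values were positive. The 3 libraries of each group did not overlap for 256 of the 259 risers and 63 of the 64 fallers, against 15.7% of all genes tested. Genes were called from the same 6 libraries, so this separation follows largely from the call and is no separate support. Protein-coding genes made up 241 of the risers and 59 of the fallers. At an unadjusted p under 0.05, 2265 genes were found. The count of changed genes fell to 158 (140 higher, 18 lower) without sgNTA replicate 2, to 195 (166 higher, 29 lower) without sgNTA replicate 3 and to 178 (148 higher, 30 lower) without sgPACT-2 replicate 3. The fallers numbered 116 with DESeq2 and 114 with no filter on low counts. Fitted with the more variable HCC1806 libraries in 1 model, 46 genes passed in MDA-MB-468, all of them higher, and 42 of these were among the 323.

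**Figure D1:**
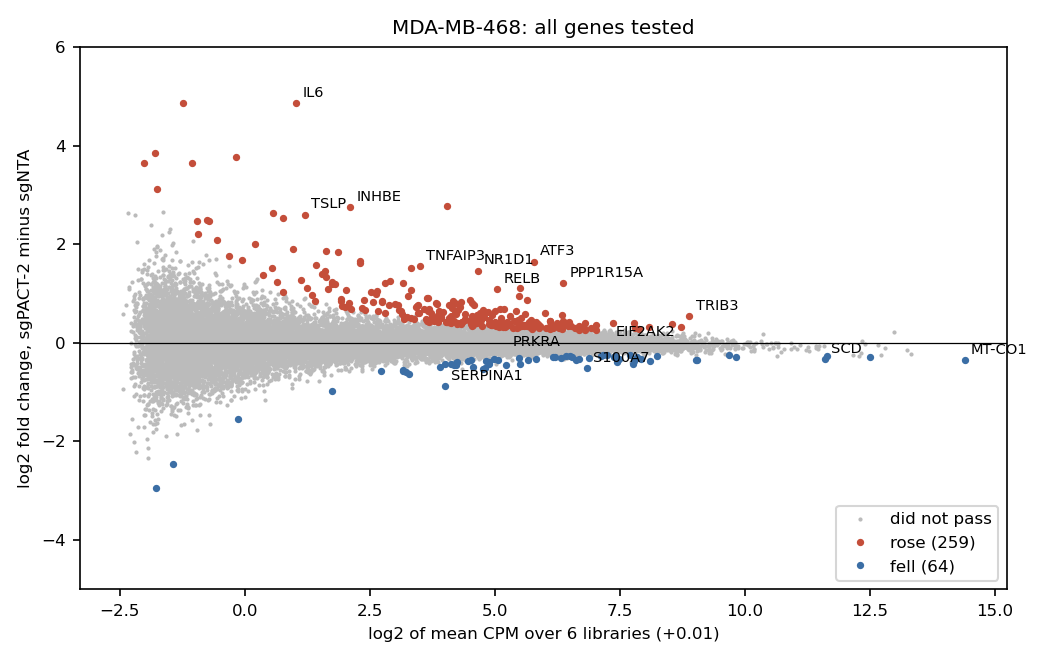
Each point is 1 of the 21404 genes tested, with its mean level over the 6 libraries (log2 of mean CPM plus 0.01, horizontal axis) and its log2 fold change, sgPACT-2 minus sgNTA (vertical axis). Red points (259) rose, blue points (64) fell and grey points did not pass; the rises reach further from 0 than the falls, and 1 gene, SPX, lies above the axis.

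The largest rise among genes with enough counts was that of IL6 (ENSG00000136244, chromosome 7, 22725884 to 22732002, plus strand), the inflammatory cytokine interleukin 6. IL6 was nearly silent with sgNTA, at 0.225, 0.0554 and 0.112 CPM, and reached 4.04, 2.55 and 5.15 CPM with sgPACT-2 (log2 fold change 4.85, SE 0.39, adjusted p = 1.22e-09). INHBE (chromosome 12, 57452323 to 57459280, plus strand), which encodes the secreted inhibin beta E chain and is known as a gene of the stress response, went from 1.08, 1.27 and 1.00 CPM to 8.49, 7.15 and 6.85 CPM (log2 fold change 2.75, SE 0.19, adjusted p = 7.27e-11). TSLP, a cytokine that epithelial cells release as an alarm signal to dendritic cells, went from 0.776, 0.638 and 0.536 CPM to 4.60, 2.86 and 4.33 CPM (log2 fold change 2.60, SE 0.27, adjusted p = 3.57e-07). In all 3 genes every sgPACT-2 library lay well above every control library, and a lack of overlap was part of the rule that chose them. ATF3, a stress-induced transcription factor (chromosome 1, 212565334 to 212620777, plus strand), was expressed at baseline and rose as evenly: 26.3, 26.6 and 26.7 CPM in controls and 89.2, 71.3 and 88.3 CPM with sgPACT-2 (log2 fold change 1.64, SE 0.084, adjusted p = 3.29e-14).

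The other 8 of the 12 largest protein-coding rises were mostly in genes that were low in control cells. BACH2, a transcriptional repressor best known from lymphocytes, had a log2 fold change of 2.64 (SE 0.41) and RAB39B, a small GTPase of vesicle traffic, one of 2.53 (SE 0.31). The ubiquitin ligase gene TRIM67 rose by 1.90 (SE 0.27), the collagen receptor kinase DDR2 by 1.85 (SE 0.22), the zinc finger gene ZNF442 by 1.83 (SE 0.24), the kelch domain gene KLHDC7B by 1.65 (SE 0.19) and the chloride channel gene BEST1 by 1.62 (SE 0.21). Their adjusted p lay between 1.24e-06 for KLHDC7B and 0.000204 for BACH2, and all 7 kept their call without any 1 library. ITGAM, an integrin chain of myeloid cells, had the weakest support of the 12: 1.08, 0.139 and 0.156 CPM with sgNTA and 1.55, 2.52 and 1.43 CPM with sgPACT-2 (log2 fold change 2.00, SE 0.48, adjusted p = 0.0255). ITGAM lost its call with DESeq2 (adjusted p = 0.357) and in 3 of 6 fits with 1 library removed, with sgNTA replicate 2, sgNTA replicate 3 or sgPACT-2 replicate 2 removed (up to 0.222). The strand setting of the counting is not given, so reads from an overlapping gene on the other strand may be included for IL6, TSLP, BACH2, TRIM67 and BEST1.

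**Figure D2:**
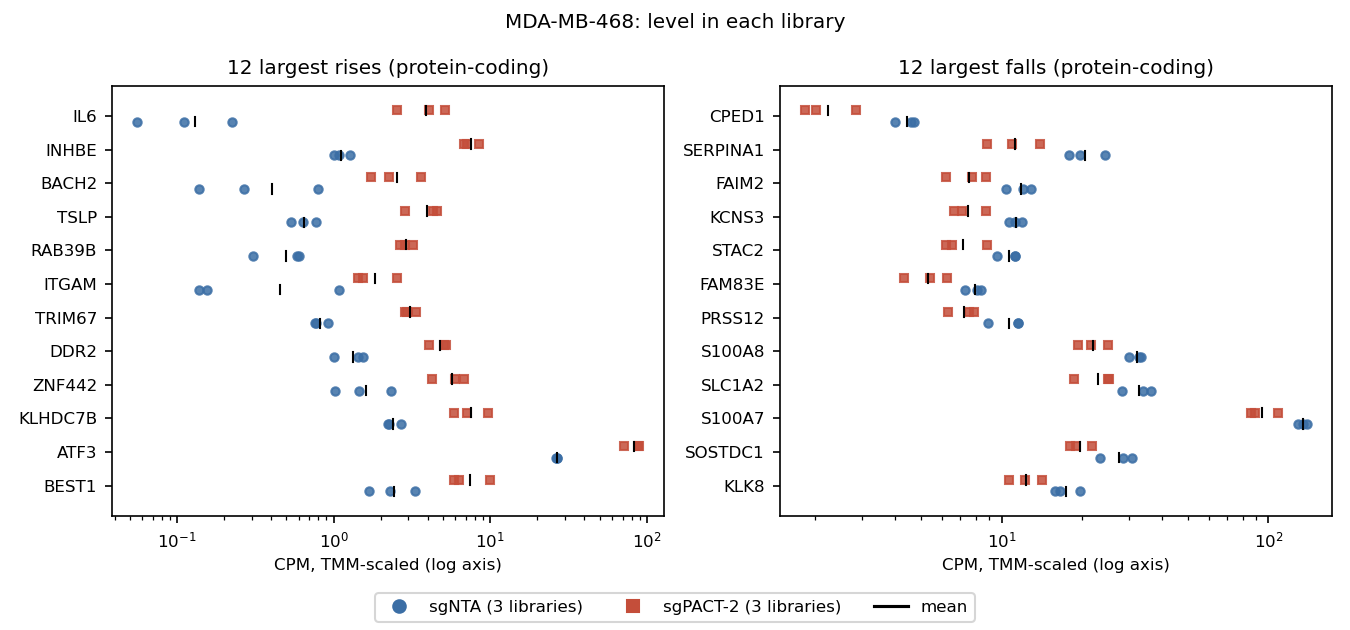
TMM-scaled CPM (horizontal log axes) of the 12 protein-coding genes with the largest rises (left) and the 12 with the largest falls (right) in each library; blue circles are the 3 sgNTA libraries, red squares the 3 sgPACT-2 libraries and black bars their means. The 2 groups do not overlap in any of the 24 genes, which is part of the rule that chose them, and the rises span more of the axis than the falls.

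The promoters of risers that the motif search matched are shown because ATF4, CREB and ATF family, AP-1 and NF-kappaB proteins are the factors through which stress and inflammatory genes are usually read. The window runs from 250 bases before to 50 after the start site, 5′ to 3′ on the gene's strand, from RefSeq (GRCh38.p14). Searched on both strands were the amino acid response element of ATF4 and C/EBP proteins (TGATGNAAT), the cyclic AMP response element (CRE, TGACGTCA), the AP-1 site (TGANTCA) and the kappaB consensus. Each window shown holds 1 match, marked by capitals. The match begins 73 bases before the start site in IL6 (kappaB), 82 in BACH2 (CRE), 55 in FGF21 (amino acid response element), 169 in TRIM67 (AP-1), 1 in DDR2 (AP-1) and 152 in KLHDC7B (amino acid response element).
IL6 chr7:22726950-22727249 plus strand: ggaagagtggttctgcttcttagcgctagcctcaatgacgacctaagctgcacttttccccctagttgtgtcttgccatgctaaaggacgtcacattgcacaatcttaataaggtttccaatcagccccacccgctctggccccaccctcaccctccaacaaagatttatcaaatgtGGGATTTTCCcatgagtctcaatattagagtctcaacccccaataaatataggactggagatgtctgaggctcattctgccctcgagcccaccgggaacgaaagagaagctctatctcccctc
BACH2 chr6:90296794-90297093 minus strand: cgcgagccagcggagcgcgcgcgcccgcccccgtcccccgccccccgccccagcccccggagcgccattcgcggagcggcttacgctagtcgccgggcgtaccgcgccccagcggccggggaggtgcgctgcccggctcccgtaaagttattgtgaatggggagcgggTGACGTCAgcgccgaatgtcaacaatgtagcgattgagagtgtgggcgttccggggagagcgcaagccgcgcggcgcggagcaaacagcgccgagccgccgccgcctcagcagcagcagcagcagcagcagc
FGF21 chr19:48755274-48755573 plus strand: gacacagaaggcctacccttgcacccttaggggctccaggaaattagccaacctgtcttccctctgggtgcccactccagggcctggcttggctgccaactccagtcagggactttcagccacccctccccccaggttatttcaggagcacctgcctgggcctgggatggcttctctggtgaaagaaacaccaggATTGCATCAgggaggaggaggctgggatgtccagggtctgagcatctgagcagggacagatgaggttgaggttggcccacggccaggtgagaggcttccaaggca
TRIM67 chr1:231161808-231162107 plus strand: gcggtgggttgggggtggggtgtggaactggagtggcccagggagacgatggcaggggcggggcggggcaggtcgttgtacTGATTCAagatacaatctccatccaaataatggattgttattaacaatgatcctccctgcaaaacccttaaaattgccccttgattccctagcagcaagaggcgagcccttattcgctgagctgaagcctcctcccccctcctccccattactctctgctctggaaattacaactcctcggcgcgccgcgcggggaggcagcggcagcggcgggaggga
DDR2 chr1:162630613-162630912 plus strand: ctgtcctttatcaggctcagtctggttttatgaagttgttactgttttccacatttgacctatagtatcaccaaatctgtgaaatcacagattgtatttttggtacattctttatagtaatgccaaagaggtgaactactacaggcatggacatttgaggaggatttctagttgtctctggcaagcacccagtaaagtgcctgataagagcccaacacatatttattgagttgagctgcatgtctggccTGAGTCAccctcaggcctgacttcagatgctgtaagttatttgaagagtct
KLHDC7B chr22:50545649-50545948 plus strand: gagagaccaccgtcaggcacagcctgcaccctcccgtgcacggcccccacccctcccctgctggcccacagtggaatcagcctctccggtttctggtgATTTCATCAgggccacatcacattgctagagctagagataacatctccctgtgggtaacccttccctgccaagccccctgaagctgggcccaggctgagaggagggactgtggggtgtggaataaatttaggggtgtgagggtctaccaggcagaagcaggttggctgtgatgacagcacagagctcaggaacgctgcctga
Promoters of 60 of the named risers were in the RefSeq table. The amino acid response element was in 2 of these (3.33%, against 1.02% of all 27305 promoters of that length), the CRE in 5 (8.33% against 1.98%), the AP-1 site in 4 (6.67% against 7.76%) and the kappaB consensus in 6 (10.0% against 5.72%). The CRE was also found in PPP1R15A, MAFF, DUSP1 and GABARAPL1, and the kappaB consensus in TNFAIP3, BIRC3, IRF1, SESN2 and NFKB1. Many of the named risers were named as members of the ISR, NF-kappaB and other lists, or as zinc finger genes after their values had been seen. Their shares beside all promoters therefore follow in part from that choice and are no test of enrichment. The 60 risers were all protein-coding, while the 27305 promoters were not limited by gene type. For each symbol 1 promoter was searched. A match is a description of letters and says nothing of binding.

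Of 16 transcription factors and feedback genes of the ISR, 8 rose and 0 fell, 14 had positive values and the median log2 fold change was 0.25, against -0.0041 over all genes. After ATF3, the largest was PPP1R15A, which encodes GADD34, the phosphatase subunit that reverses eIF2alpha phosphorylation. PPP1R15A read 56.9, 47.6 and 44.2 CPM with sgNTA and 124, 102 and 119 CPM with sgPACT-2 (log2 fold change 1.22, SE 0.085, adjusted p = 7.2e-11), so each sgPACT-2 library was far above the controls. DDIT3, the gene of the stress factor CHOP, went from 9.16, 8.43 and 10.2 CPM to 15.00, 15.3 and 14.2 CPM (log2 fold change 0.68, SE 0.11, adjusted p = 0.000406). DDIT3 overlaps MARS and MBD6 on the other strand, and their reads may be included. MARS had means of 411 CPM with sgNTA and 401 CPM with sgPACT-2. TRIB3, a pseudokinase that restrains ATF4, went from 404, 375 and 384 CPM to 613, 495 and 575 CPM (log2 fold change 0.53, SE 0.07, adjusted p = 1.31e-05). The increases of DDIT3 and TRIB3 were smaller than that of ATF3 and again showed no overlap between groups. DDIT4 and SESN2, brakes on mTORC1, rose by 0.56 (SE 0.076) and 0.51 (SE 0.08). CHAC1, a glutathione-degrading enzyme, rose by 0.39 (SE 0.09, adjusted p = 0.0162) and CEBPG, a partner of ATF4, by 0.30 (SE 0.074, adjusted p = 0.0293). The calls of CHAC1 and CEBPG ended in 4 and 5 of 6 fits with 1 library removed, with adjusted p up to 0.0941 without sgNTA replicate 1 and 0.197 without sgNTA replicate 2. The transcript of ATF4 itself did not pass (log2 fold change -0.048, adjusted p = 0.859), nor did ATF5 (-0.089), both of which are known to be controlled through translation.

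Secreted products of the stress response included some of the largest changes. INHBE, GDF15 and FGF21 rose, while STC2, ADM2 and VEGFA did not pass, so 3 of 6 rose and 0 fell (median 0.91). GDF15, a circulating stress hormone, went from 1.73, 1.16 and 1.16 CPM to 4.93, 3.42 and 3.75 CPM (log2 fold change 1.58, SE 0.24, adjusted p = 0.000104). FGF21, a metabolic hormone, was low in every library, at 0.125, 0.249 and 0.0893 CPM with sgNTA and 0.635, 1.01 and 0.923 CPM with sgPACT-2 (log2 fold change 2.47, SE 0.56, adjusted p = 0.0158). Its groups did not overlap, but its call ended in 4 of 6 fits with 1 library removed (without sgNTA replicate 1 or 3 or sgPACT-2 replicate 2 or 3, adjusted p up to 0.111).

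Few genes of the amino acid arm of the response passed. Of 21 genes tested for amino acid synthesis and transport, 3 rose and 0 fell, with a median of 0.020. CTH, which makes cysteine from cystathionine, went from 13.9, 14.2 and 15.6 CPM to 24.9, 22.01 and 30.1 CPM (log2 fold change 0.82, SE 0.11, adjusted p = 1.2e-05). SLC3A2 and SLC7A11 encode the heavy and light chains of the cystine transporter. SLC3A2 went from 312, 330.4 and 330.1 CPM to 432, 416 and 422 CPM (log2 fold change 0.38, SE 0.062, adjusted p = 0.000261), and SLC7A11 rose by 0.37 (SE 0.082, adjusted p = 0.0114), a call that ended without sgPACT-2 replicate 2, sgNTA replicate 3 or sgPACT-2 replicate 3 (adjusted p up to 0.121). ASNS, the asparagine synthetase and a standard ATF4 target, had a log2 fold change of 0.078 (adjusted p = 0.77), PSAT1 one of 0.084 and PHGDH one of -0.045. Of 21 cytosolic aminoacyl-tRNA synthetase and tRNA export genes 0 passed in edgeR and 1 rose in DESeq2, while 16 had positive values (median 0.088), 10 of them with an unadjusted p under 0.05. The highest, WARS, measured 184, 163 and 176 CPM and 231, 178 and 212 CPM (log2 fold change 0.25, SE 0.077, adjusted p = 0.115), with overlapping groups. The count of synthetase genes that rose was 4 with library size in place of TMM scaling, 2 without sgPACT-2 replicate 2 and 1 with no filter on low counts.

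**Figure D3:**
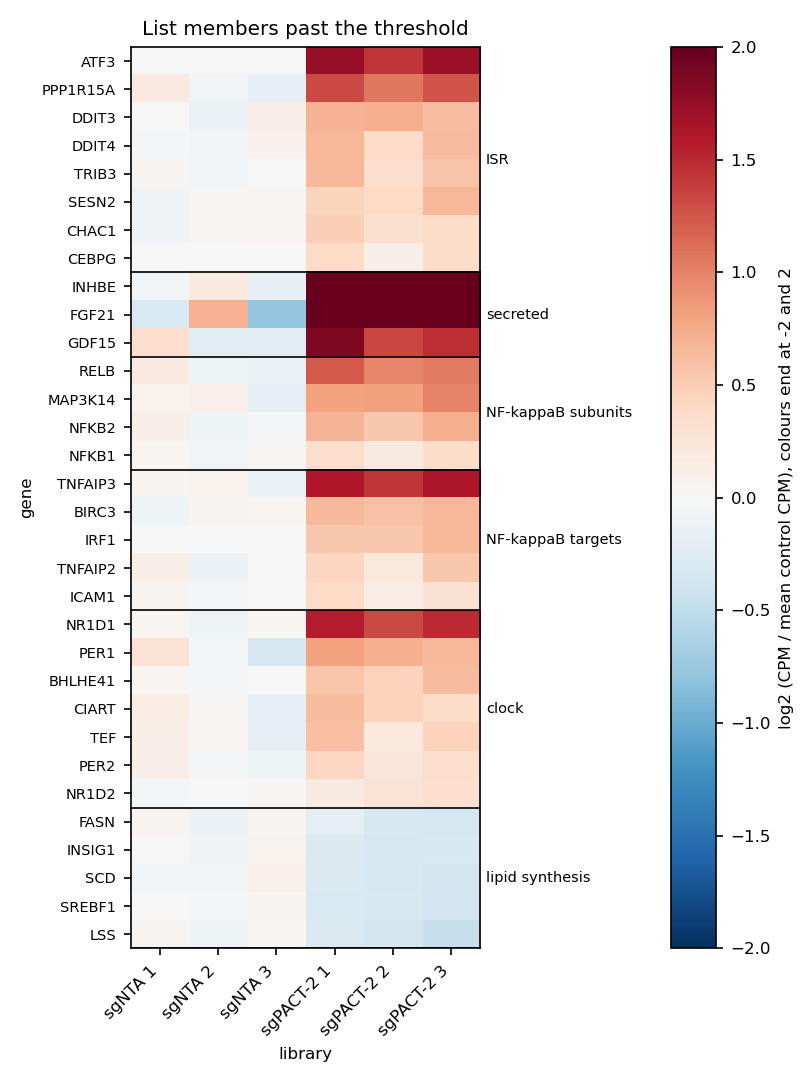
Rows are the members of 6 gene lists that passed in MDA-MB-468 and columns the 6 libraries; the colour is the log2 ratio of each library's CPM to the mean of the 3 sgNTA libraries, ending at -2 and 2. The 3 sgPACT-2 columns are red for ISR, secreted, NF-kappaB and clock genes and pale blue for the 5 lipid synthesis genes.

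Of 16 NF-kappaB subunits, regulators and inhibitors, RELB, MAP3K14, NFKB2 and NFKB1 rose, 0 fell and the median log2 fold change was 0.16. In the non-canonical branch of the pathway the kinase NIK, encoded by MAP3K14, leads to processing of the NFKB2 product and to dimers with RELB. RELB went from 24.4, 19.96 and 19.3 CPM to 49.7, 41.6 and 43.5 CPM (log2 fold change 1.08, SE 0.094, adjusted p = 5.88e-09), MAP3K14 from 16.9, 17.2 and 14.02 CPM to 28.01, 28.2 and 31.9 CPM (log2 fold change 0.87, SE 0.10, adjusted p = 1.2e-06) and NFKB2 from 36.1, 31.4 and 32.6 CPM to 53.2, 48.4 and 55.1 CPM (log2 fold change 0.65, SE 0.081, adjusted p = 6.22e-06). In all 3 the lowest sgPACT-2 library was above the highest control. NFKB1, which encodes p50 and its precursor, rose by 0.30 (SE 0.075, adjusted p = 0.034), and its call ended in 5 of 6 fits with 1 library removed, all but the one without sgPACT-2 replicate 2 (adjusted p up to 0.265). CHUK, the kinase on which NIK acts, had a log2 fold change of 0.11 (adjusted p = 0.697), and TRAF3 and TRAF2, which hold NIK low, had 0.26 (adjusted p = 0.314) and 0.15 (adjusted p = 0.549), so these members of the branch did not pass. RELA had a log2 fold change of 0.041, REL one of 0.18 and the inhibitor NFKBIA one of 0.31 (adjusted p = 0.0949), none of them past the threshold. MAP3K14 overlaps the antisense gene MAP3K14-AS1, whose reads may be included.

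Of 14 NF-kappaB target genes tested, 5 rose, 0 fell, and all 14 had positive values (median 0.21). TNFAIP3 encodes A20, an enzyme that ends NF-kappaB signalling, and went from 6.03, 6.04 and 5.27 CPM to 17.5, 15.5 and 17.8 CPM (log2 fold change 1.55, SE 0.12, adjusted p = 3.95e-10). BIRC3, an inhibitor of apoptosis that also degrades NIK, went from 20.7, 22.9 and 22.6 CPM to 34.5, 33.04 and 35.05 CPM (log2 fold change 0.63, SE 0.085, adjusted p = 1.96e-05). IRF1, an interferon regulatory factor, went from 38.9, 39.2 and 38.7 CPM to 56.5, 56.6 and 61.9 CPM (log2 fold change 0.58, SE 0.074, adjusted p = 8.46e-06). The groups were apart in all 3, with A20 changing most. TNFAIP2 rose by 0.40 (SE 0.077) and the adhesion molecule gene ICAM1 by 0.29 (SE 0.073). The call of TNFAIP2 ended without sgNTA replicate 2 (adjusted p = 0.072) and that of ICAM1 in 5 of 6 fits with 1 library removed (up to 0.255 without sgNTA replicate 2), so without sgNTA replicate 2 the list held 3 risers. TNF itself did not pass (log2 fold change 0.72, adjusted p = 0.731), nor did SOD2 (0.011) or NFKBIA.

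Cytokines and chemokines changed in few members. IL6 and TSLP were the 2 risers of 17 tested, 0 fell, and the median was 0.19. CXCL8, the chemokine interleukin 8, read 1.03, 0.943 and 1.67 CPM with sgNTA and 1.68, 2.05 and 3.16 CPM with sgPACT-2 (log2 fold change 0.90, SE 0.30, adjusted p = 0.163), a separation of the groups that did not pass. IL32 was at 0.125, 0.0277 and 0 CPM and 0.305, 0.393 and 0.280 CPM (log2 fold change 2.62, SE 0.83, adjusted p = 0.135), close to the floor of 3 counts (0.0670 to 0.0841 CPM). IL1A (0.49), IL1B (0.18), CXCL1 (0.13) and CXCL10 (0.34) did not pass. Another 9 of the 26 cytokines on the list were too low to test, CCL2, CCL5 and CSF2 among them, with at most 17 counts in any library.

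Interferon-stimulated genes did not pass the threshold in this line. Of 29 tested, 0 passed in edgeR, 0 in DESeq2 and 0 had an unadjusted p under 0.05; 13 had positive and 16 negative values, and the median was -0.014. ISG15 had a log2 fold change of 0.078 (SE 0.15), MX1 one of -0.022 (SE 0.088) and IFIT1 one of -0.48 (SE 0.29, adjusted p = 0.597). IFIT1, which binds foreign RNA caps, measured 1.60, 1.58 and 2.03 CPM and 1.30, 1.15 and 1.29 CPM, all 3 sgPACT-2 libraries being lower. Of 7 RNA sensor and adaptor genes tested, 0 passed in edgeR or DESeq2 and 1, IFIH1, had an unadjusted p under 0.05. IFIH1, the gene of the sensor MDA5, had a log2 fold change of 0.23 (SE 0.088) and DDX58, the gene of RIG-I, one of -0.18 (SE 0.13). The change of DDX58 differed from that in HCC1806 (0.79) by -0.97 (interaction adjusted p = 0.0489), a difference that passed in 1 of 12 fits with 1 library removed. Transcripts of the interferon genes IFNB1, IFNL1, IFNL2 and IFNL3 were at no more than 2 counts in any library, so a change in them was not detectable at this depth.

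Of 16 genes of the circadian clock, 7 rose (against 1.21% of all genes tested), 0 fell, 15 had positive values and the median was 0.28. NR1D1 encodes REV-ERBalpha, a haem-binding repressor of the clock gene ARNTL, and changed most: 13.8, 12.7 and 13.9 CPM with sgNTA and 40.01, 33.6 and 37.7 CPM with sgPACT-2 (log2 fold change 1.46, SE 0.093, adjusted p = 8.38e-12). NR1D1 overlaps THRA on the other strand, and reads of THRA may be included. PER1, a clock repressor, went from 17.97, 14.6 and 11.8 CPM to 25.9, 24.2 and 23.4 CPM (log2 fold change 0.73, SE 0.11, adjusted p = 0.000181). BHLHE41, a further repressor, went from 25.4, 24.2 and 24.7 CPM to 36.5, 34.3 and 38.5 CPM (log2 fold change 0.55, SE 0.083, adjusted p = 1e-04). The groups did not overlap in any of the 3. CIART rose by 0.49 (SE 0.12), the output factor TEF by 0.44 (SE 0.092), PER2 by 0.34 (SE 0.084) and NR1D2 by 0.27 (SE 0.07). Those 4 calls were less firm: leaving out single libraries gave adjusted p up to 0.249 for CIART and 0.22 for PER2 (both without sgNTA replicate 3), 0.0967 for TEF (without sgNTA replicate 3) and 0.227 for NR1D2 (without sgNTA replicate 2). NR1D2 also lost its call with GC and length trends removed (adjusted p = 0.0856). The list held 4 risers without sgNTA replicate 2, 4 without sgPACT-2 replicate 1 and 3 without sgNTA replicate 3. The activators CLOCK (-0.0006) and ARNTL (0.13) did not pass.

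Growth factor signalling genes gave scattered rises. Of 20 AP-1 and immediate early genes, KLF4 and MAFF rose and 0 fell (median 0.053). KLF4, a zinc finger factor of epithelial differentiation, went from 15.1, 16.1 and 12.1 CPM to 26.3, 20.00 and 27.3 CPM (log2 fold change 0.77, SE 0.12, adjusted p = 0.000105), and MAFF, a small MAF protein, from 19.5, 17.8 and 16.00 CPM to 33.1, 28.5 and 28.9 CPM (log2 fold change 0.77, SE 0.10, adjusted p = 6.79e-06). FOS (-0.036), JUN (0.10) and EGR1 (-0.061) did not pass. Of 16 MAP kinase phosphatases and ERK feedback genes, 3 rose and 0 fell (median 0.15). DUSP1, a phosphatase of stress-activated kinases, rose by 0.74 (SE 0.13), the ERK-induced factor ETV5 by 0.38 (SE 0.092) and the feedback inhibitor SPRY2 by 0.36 (SE 0.091). Only DUSP1 of these 3 kept its call without sgNTA replicate 2, sgNTA replicate 3, sgPACT-2 replicate 1 or sgPACT-2 replicate 3 (adjusted p up to 0.128 for ETV5 and 0.304 for SPRY2).

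MDA-MB-468 is known for an amplified EGFR gene, and EGFR measured 7275, 7503 and 7589 CPM and 8205, 8327 and 9396 CPM (log2 fold change 0.21, SE 0.06, adjusted p = 0.0713), higher in all 3 sgPACT-2 libraries without passing. Of 12 EGFR family receptors and ligands, 2 rose and 0 fell: ERRFI1, a feedback inhibitor of EGFR, by 0.40 (SE 0.071, adjusted p = 0.000966) and the ligand HBEGF by 0.51 (SE 0.13, adjusted p = 0.0357). The call of HBEGF ended without sgNTA replicate 1, sgNTA replicate 2, sgPACT-2 replicate 1 or sgPACT-2 replicate 3 (up to 0.291). ERBB2 (-0.10) and ERBB3 (-0.23) were lower in every sgPACT-2 library and did not pass. In the TGF-beta family, INHBA was the 1 riser of 17 genes: the activin A chain gene went from 2.33, 2.08 and 1.99 CPM to 4.52, 4.85 and 5.26 CPM (log2 fold change 1.19, SE 0.19, adjusted p = 0.000261).

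Of 20 p53 target genes, 3 rose and 0 fell, with a median of -0.011. The risers were GDF15, GADD45A and TNFRSF10B, which are also known as targets of ATF4 or CHOP. GADD45A, a growth arrest gene, went from 29.5, 29.7 and 27.2 CPM to 68.5, 51.6 and 66.2 CPM (log2 fold change 1.11, SE 0.09, adjusted p = 1.32e-09). TNFRSF10B, the death receptor DR5, went from 38.6, 38.7 and 34.5 CPM to 49.8, 47.98 and 52.6 CPM (log2 fold change 0.43, SE 0.078, adjusted p = 0.00131). CDKN1A (0.0022) and MDM2 (-0.024), the standard p53 targets, did not pass. Of 15 genes of the BCL2 family 0 passed in edgeR or DESeq2 and 3 had an unadjusted p under 0.05, all higher with sgPACT-2. The highest of these was the pro-apoptotic HRK at 4.63, 4.66 and 4.87 CPM and 6.15, 6.76 and 7.22 CPM (log2 fold change 0.51, SE 0.15, adjusted p = 0.0911).

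Other stress programmes showed few calls. Of 21 ER chaperone and unfolded protein response genes, ERN1, the gene of the ER stress sensor IRE1, rose by 0.32 (SE 0.079, adjusted p = 0.0314) and 0 fell (median 0.026). That call ended in 5 of 6 fits with 1 library removed, all but the one without sgPACT-2 replicate 2 (up to 0.203). HSPA5, the chaperone BiP, had a log2 fold change of 0.20 (adjusted p = 0.137). Of 13 cytosolic heat shock genes 0 passed in edgeR or DESeq2 and 0 had an unadjusted p under 0.05 (median -0.032). Of 23 targets of the antioxidant factor NRF2, SLC7A11 rose and 2 fell, PGD by -0.26 (adjusted p = 0.0327) and AKR1C1 by -0.34 (adjusted p = 0.0357), with a median of -0.017. Without sgNTA replicate 2 neither of these 2 passed (adjusted p = 0.21 and 0.45), nor did they with library size in place of TMM scaling. Of 15 autophagy genes, 3 rose and 0 fell (median 0.066). GABARAPL1, an ATG8 family protein of the autophagosome, went from 21.7, 18.8 and 21.03 CPM to 32.02, 27.4 and 31.9 CPM (log2 fold change 0.57, SE 0.092, adjusted p = 0.000306). TFEB, the master factor of lysosomal genes, rose by 0.45 (SE 0.11) and the cargo receptor NBR1 by 0.32 (SE 0.074). TFEB and NBR1 both lost their calls without sgPACT-2 replicate 1, sgNTA replicate 2 or sgPACT-2 replicate 3 (up to 0.188 and 0.147).

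**Figure D4:**
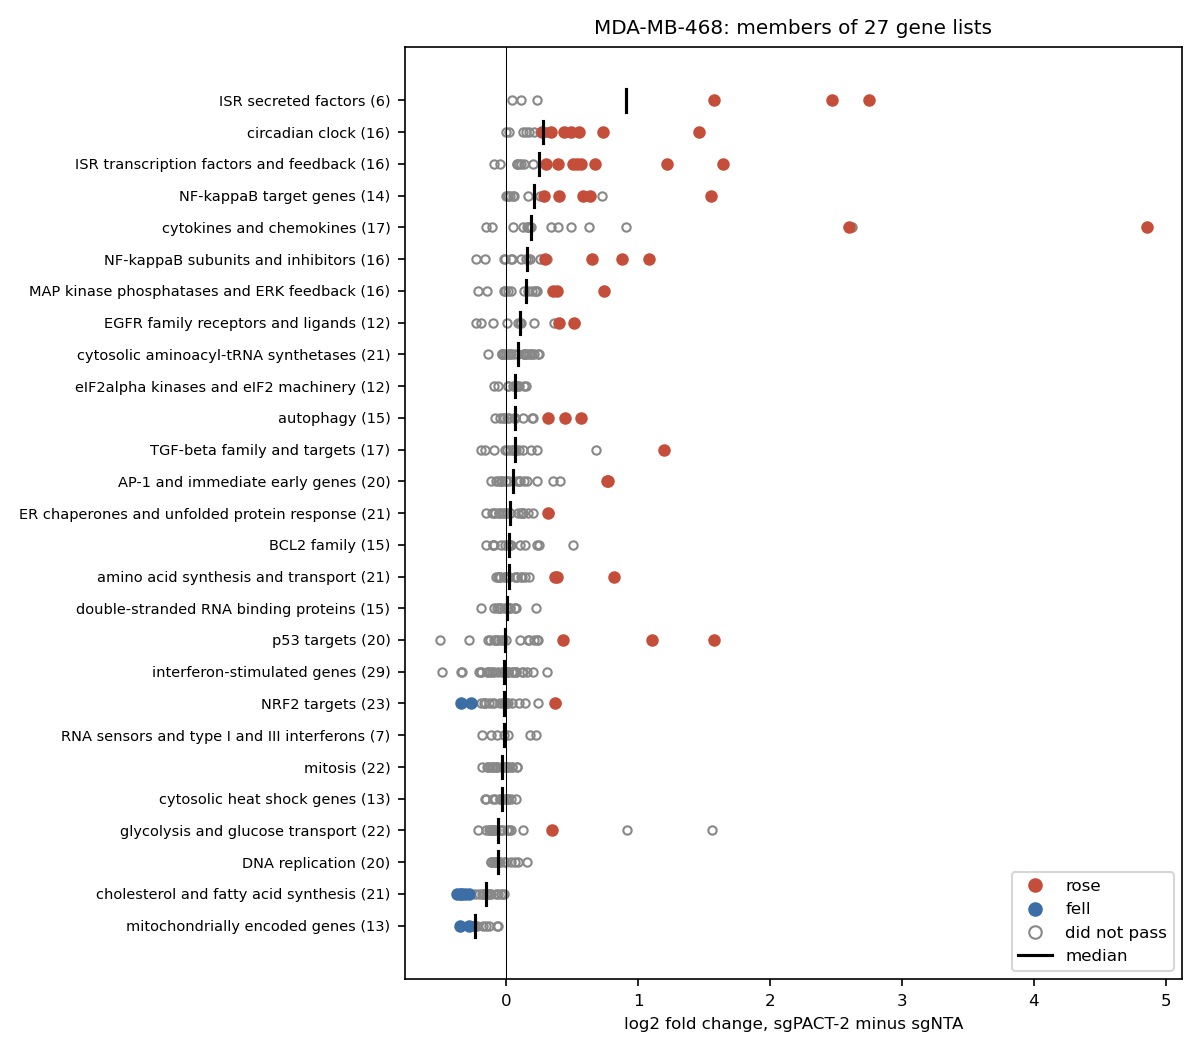
Each circle is 1 tested gene of 1 of 27 lists, ordered by the list's median (black bar), with its log2 fold change, sgPACT-2 minus sgNTA, on the horizontal axis and the number tested in brackets; red circles rose, blue circles fell and open circles did not pass. Calls in the upper rows are all rises, and falls appear in the lists of NRF2 targets, cholesterol and fatty acid synthesis and mitochondrially encoded genes.

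The falls were smaller than the rises by their medians. Among protein-coding genes whose higher group averaged 50 counts or more and whose groups did not overlap, CPED1 had the largest fall, from 3.98, 4.68 and 4.60 CPM to 1.83, 2.02 and 2.85 CPM (log2 fold change -0.99, SE 0.21, adjusted p = 0.00669). SERPINA1, the gene of the protease inhibitor alpha-1 antitrypsin (chromosome 14, 94376747 to 94390693, minus strand), went from 17.9, 19.6 and 24.3 CPM to 8.82, 10.97 and 13.99 CPM (log2 fold change -0.88, SE 0.13, adjusted p = 1e-04). FAIM2, KCNS3, STAC2, FAM83E and PRSS12 came next in size. S100A7, the epithelial antimicrobial protein psoriasin and also one of the 12 largest protein-coding falls, went from 139, 135 and 129 CPM to 89.3, 108 and 86.04 CPM (log2 fold change -0.51, SE 0.076, adjusted p = 1e-04). S100A8, a chain of calprotectin, went from 32.7, 33.5 and 30.1 CPM to 21.7, 25.1 and 19.4 CPM (log2 fold change -0.54, SE 0.094, adjusted p = 0.000774). The highest sgPACT-2 library was below the lowest control library in CPED1, SERPINA1, S100A7 and S100A8, as the rule that chose them required. The remaining 8 of the 12 largest protein-coding falls were FAIM2, KCNS3, STAC2, FAM83E, PRSS12, SLC1A2, SOSTDC1 and KLK8, with log2 fold changes from -0.64 for FAIM2 to -0.49 for KLK8. SLC1A2 encodes a glutamate transporter, KCNS3 a potassium channel subunit, PRSS12 and KLK8 serine proteases and SOSTDC1 an antagonist of BMP and Wnt signals. SERPINA1, S100A7 and S100A8 kept their calls without any 1 library. The call of CPED1 ended without sgNTA replicate 2 (adjusted p = 0.055), and the other 8 lost theirs in 1 to 5 of these 6 fits, with adjusted p up to 0.285 for FAM83E without sgPACT-2 replicate 3. FAM83E also lost its call with library size only (adjusted p = 0.0719). With GC and length trends removed, FAM83E (adjusted p = 0.0824) and KLK8 (adjusted p = 0.0539) lost theirs.

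Cholesterol and fatty acid synthesis was the list with the most falls. All 21 genes had negative values, 5 fell (against 0.299% of all genes tested), 0 rose and the median was -0.15. In 13 of the 21 every sgPACT-2 library was below every control. Over all genes tested the groups did not overlap, in either direction, for 15.7%. SCD, the desaturase that makes monounsaturated fatty acids, went from 3348, 3339 and 3727 CPM to 2831, 2712 and 2687 CPM (log2 fold change -0.34, SE 0.06, adjusted p = 0.000966). LSS, the lanosterol synthase of cholesterol synthesis, went from 257, 235 and 253 CPM to 203, 194 and 181 CPM (log2 fold change -0.37, SE 0.066, adjusted p = 0.00108). SREBF1, which encodes the lipogenic factor SREBP-1, went from 585, 572 and 610.2 CPM to 475, 469.7 and 450.3 CPM (log2 fold change -0.34, SE 0.061, adjusted p = 0.0011). These 3 fell by similar amounts and kept their calls without any 1 library. INSIG1, a sterol sensor and SREBP target, fell by 0.31 on the log2 scale (SE 0.067) and the fatty acid synthase FASN by 0.28 (SE 0.063). INSIG1 lost its call without sgNTA replicate 3 (adjusted p = 0.138) and FASN without either sgNTA replicate 1 or 3 or sgPACT-2 replicate 2 or 3 (up to 0.128), so the list held 3 fallers without sgNTA replicate 3. HMGCS1 (-0.014), an early enzyme of cholesterol synthesis, did not pass. With all 12 libraries in 1 model 0 of the 21 passed.

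All 13 protein-coding genes of the mitochondrial genome had negative values (median -0.24), and 2 fell. MT-CO1, a chain of cytochrome oxidase, went from 26680, 24490 and 21270 CPM to 16410, 19440 and 20910 CPM (log2 fold change -0.35, SE 0.074, adjusted p = 0.00728), and MT-CO3 from 6777, 6355 and 5858 CPM to 4638, 5372 and 5604 CPM (log2 fold change -0.28, SE 0.067, adjusted p = 0.0219). The lowest library was sgPACT-2 replicate 1 for both genes, and sgNTA replicate 3 and sgPACT-2 replicate 3 were close together. The mitochondrial share of all counts was 8.90%, 8.50% and 7.36% with sgNTA and 6.31%, 7.48% and 7.53% with sgPACT-2, and its part in these calls was not tested. The number of fallers was 0 without sgNTA replicate 2 and 8 without sgNTA replicate 3. MT-CO1 lost its call without sgNTA replicate 2 (adjusted p = 0.0638) and MT-CO3 without sgNTA replicate 1, sgNTA replicate 2 or sgPACT-2 replicate 1 (up to 0.144). Leaving these genes out of the table gave 327 changed genes, 321 of them among the 323.

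Cell cycle genes did not pass. Of 22 mitosis genes 0 passed in edgeR or DESeq2 and 0 had an unadjusted p under 0.05 (median -0.031, range -0.18 to 0.081), with MKI67 at -0.032 and CCNB1 at -0.025. Of 20 DNA replication genes, too, 0 passed in either tool and 0 had an unadjusted p under 0.05 (median -0.062), with PCNA at -0.084 and MCM2 at -0.069. Of 22 genes of glycolysis and glucose transport, PDK1, a kinase that shuts off pyruvate dehydrogenase, rose by 0.34 (SE 0.091, adjusted p = 0.0479) and 0 fell (median -0.061). That call ended in 5 of 6 fits with 1 library removed, all but the one without sgPACT-2 replicate 1 (up to 0.411 without sgPACT-2 replicate 3), and with GC and length trends removed (adjusted p = 0.084).

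The response was set beside that of HCC1806, the second line of the series, where the same guide was compared with sgC1. The 2 comparisons share no library, but the lines also differ in their control guide, so line and control guide cannot be told apart. Fitted alone, HCC1806 gave 74 changed genes of 23485 tested (0.315%), 65 higher and 9 lower. The spread between replicates was wider there, with a biological coefficient of variation of 0.204 against 0.0936 in MDA-MB-468. Between the lists, 22 genes rose in both lines, 1 fell in both and 0 changed in opposite directions; these 23 are 7.12% of the changed genes of MDA-MB-468 and 31.1% of those of HCC1806. Of the 238 risers of MDA-MB-468 with a value in HCC1806, 185 had positive values there, and of 52 such fallers 39 had negative ones; of all genes tested in both lines 50.3% were positive in HCC1806. Side by side, the log2 fold changes in MDA-MB-468 and HCC1806 were 1.64 and 2.57 for ATF3, 2.75 and 2.62 for INHBE, 1.55 and 1.91 for TNFAIP3, and 1.46 and 1.40 for NR1D1.

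The difference between the lines was tested as an interaction in 1 model of all 12 libraries. Of 27029 genes, 33 passed (0.122%), 6 with the higher value in MDA-MB-468 and 27 with the lower; 2264 had an unadjusted p under 0.05. That split was 70 and 108 with DESeq2, 115 and 160 with no filter on low counts and 87 and 81 without HCC1806 sgPACT-2 replicate 1. Of the 323 changed genes of MDA-MB-468, 6 passed it. RELB rose in both lines and rose less in MDA-MB-468, with a difference of -1.24 (SE 0.18, adjusted p = 0.00674). BIRC3 differed in the same direction, by -1.56 (SE 0.18, adjusted p = 0.00169), with 0.63 in MDA-MB-468 and 2.19 in HCC1806. CHAC1 differed by -1.64 (SE 0.29, adjusted p = 0.0338). GDF15 went the other way, with 1.58 in MDA-MB-468 and 0.065 in HCC1806 and a difference of 1.52 (SE 0.27, adjusted p = 0.0362). PRKRA itself differed by 0.87 (SE 0.14, adjusted p = 0.0198): it fell in HCC1806 (-1.06, adjusted p = 0.00311) and did not pass in MDA-MB-468. The differences of RELB and BIRC3 passed in all 12 fits with 1 library removed, those of CHAC1, GDF15 and PRKRA in 3, 5 and 5 of them. Control levels also differed between the lines (mean CPM, TMM over 12 libraries, sgNTA in MDA-MB-468 and sgC1 in HCC1806). RELB had 23.56 and 7.698, BIRC3 24.47 and 7.238 and CHAC1 22.91 and 5.014, higher in MDA-MB-468. GDF15 had 1.499 and 75.29 and PRKRA 44.65 and 77.8, higher in HCC1806. With sgPACT-2, GDF15 reached 4.44 CPM in MDA-MB-468 and 77.85 CPM in HCC1806. The part of these levels in the differences was not tested. MAP3K14 had 0.87 in MDA-MB-468 and -0.12 in HCC1806, a difference that did not pass (interaction adjusted p = 0.129).

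**Figure D5:**
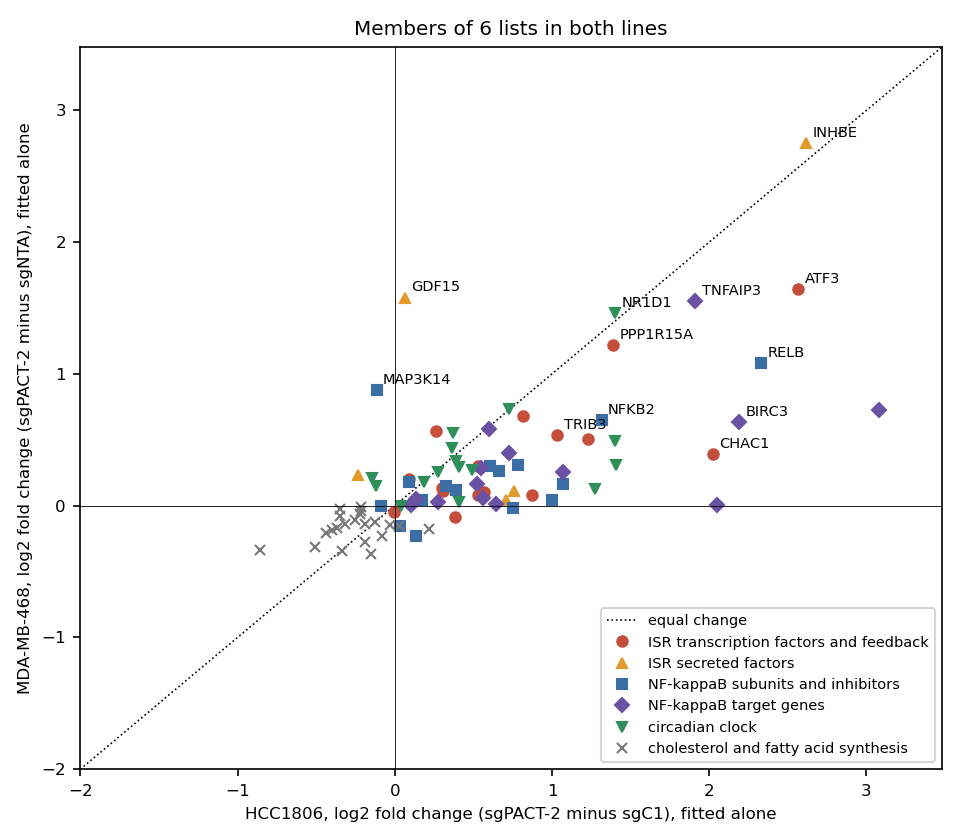
Members of 6 gene lists by their log2 fold change in HCC1806 (horizontal axis, sgPACT-2 minus sgC1) and in MDA-MB-468 (vertical axis, sgPACT-2 minus sgNTA), each line fitted alone; the dotted line marks equal change. INHBE and NR1D1 lie near the line of equal change, RELB, BIRC3 and CHAC1 lie below it and GDF15 and MAP3K14 above it.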

How the data were processed

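RNA of 2 cell lines was sequenced in 12 libraries, 6 of them from MDA-MB-468. Total RNA was treated with DNase, depleted of rRNA and made into libraries with a NEBNext Ultra II RNA kit, per the labels' protocols. The authors deposited raw counts of reads per Ensembl gene (57500 genes, 1 column per library, whole numbers, no normalization). Trimmomatic 0.36, STAR 2.5.2b, featureCounts and Subread 1.5.2 and GRCh38 are named, without role, per the submitters' processing notes; the strand setting and annotation release are not given in the sources used here. Names and coordinates came from GENCODE 29 by Ensembl ID (56898 matched); antisense genes, pseudogenes and overlapping genes are therefore uncertain.

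Genes passing filterByExpr (21404 of 37694 with at least 1 count) were tested with edgeR 4.0.16 in R 4.3.3 (TMM, glmQLFit and glmQLFTest, 1 coefficient per group, no block). The interaction used all 12 libraries. A group with at most 3 counts in every library was taken as at the floor, which covers counting error only. The members and gene lists (27 lists, 485 entries) were chosen with earlier results of these data known. Genes were named by rule: PRKRA, EIF2AK2, list members that passed (otherwise the 2 with the smallest p) and the 5 largest interactions each way. Added to these were the 12 largest protein-coding rises and falls and 3 other genes each way. They were taken among changed, non-overlapping genes whose higher group averaged 50 counts or more. The 18 changed protein-coding genes with ZNF or ZFP symbols were named too, after their values had been seen. Alternatives were DESeq2 1.42.0, RLE factors, library size only, no filter, a mean of 50 counts, all 12 libraries, a replicate block, an adjusted p under 0.01, a log2 change of 1, protein-coding genes only and leaving out each library; removal of GC and length trends (lowess span 0.3, values for 99.4% of genes), the same with the block, and removal of mitochondrial genes were added after seeing the data. Steps were tested on simulated data. Promoter sequences of 73 of 93 named genes came from RefSeq (GRCh38.p14). Figures used Python 3.11.15 and matplotlib 3.10.9.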

Additional observations from a re-analysis of the deposited data

Results flagged for a closer look

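Of the 33 genes whose change in MDA-MB-468 and in HCC1806 differed by the test of the difference itself (edgeR's quasi-likelihood interaction over all 12 libraries, adjusted p under 0.05), 15 are described. Values are the log2 change in MDA-MB-468 minus that in HCC1806. They comprise the 5 largest differences each way among genes with enough counts in both lines, of which the positive direction held 4, and every member of the gene lists that passed. The control guide also differed between the lines.

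Among the genes with the lower change in MDA-MB-468, DHRS2, a short-chain dehydrogenase, differed by -1.91 (SE 0.27, adjusted p = 0.00674). DHRS2 went from 1.88 ± 0.158 to 3.66 ± 0.429 CPM in MDA-MB-468 and from 3.51 ± 0.242 to 25.7 ± 5.79 CPM in HCC1806 (mean ± SD, n = 3 libraries each, TMM over 12 libraries), so it was higher with sgPACT-2 in both lines and more so in HCC1806. SAA2, the acute phase protein serum amyloid A2, differed by -2.18, and it measured 4.59 ± 0.472 and 5.41 ± 0.389 CPM in MDA-MB-468 but 0.561 ± 0.137 and 2.98 ± 0.507 CPM in HCC1806. SGPP2, a sphingosine phosphate phosphatase, differed by -2.23, THSD7A by -1.89 and the pseudogene RPLP0P2, whose reads are uncertain, by -2.47. RELB (-1.24), BIRC3 (-1.56) and CHAC1 (-1.64) come from the NF-kappaB and ISR lists. DUSP8, a MAP kinase phosphatase, differed by -1.58 (adjusted p = 0.00189) and DDX58, the gene of RIG-I, by -0.97 (adjusted p = 0.0489). Genes with the higher value in MDA-MB-468 included HKDC1 (1.96), a hexokinase relative with a mean of 16 counts in the sgNTA libraries, GDF15 (1.52), CAV1 (0.89), PRKRA (0.87) and NABP1 (0.76). CAV1, the gene of caveolin 1, read 73.4 ± 4.15 and 81.6 ± 8.31 CPM in MDA-MB-468 and 662 ± 67.4 and 397 ± 47.6 CPM in HCC1806. NABP1, a single-stranded DNA binding protein, read 56.1 ± 1.72 and 61.1 ± 3.03 CPM in MDA-MB-468 and 444 ± 22.02 and 286 ± 26.5 CPM in HCC1806. CAV1, NABP1, SGPP2 and HKDC1 did not pass in either line fitted alone. SAA2 and SGPP2 had means of 13 and 18 counts in the HCC1806 sgC1 libraries.

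DHRS2, RELB, BIRC3 and DUSP8 passed in all 12 fits that left out 1 library. The others lost the call in some: the fits that passed numbered 9 of 12 for THSD7A, 7 for SAA2, 5 for PRKRA and GDF15, 4 for RPLP0P2, CAV1 and HKDC1, 3 for CHAC1 and NABP1, 2 for SGPP2 and 1 for DDX58, with adjusted p up to 0.166.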

How the results depend on the processing

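The number of changed genes in MDA-MB-468, 323, lay between 323 and 440 with DESeq2 (440), RLE factors (323), library size only (395), no filter (407), a mean of 50 counts (331), protein-coding genes only (344), GC and length trends removed (348) and without mitochondrial genes (327). It was 46 with all 12 libraries in 1 model (46 higher, 0 lower), 166 at an adjusted p under 0.01 and 57 at a log2 change of 1 or more (54 higher, 3 lower). Leaving out 1 library gave 158 to 315. The replicate number as a block gave 1031 genes (649 higher, 382 lower), all 323 included, and the block with GC and length trends removed gave 884 (569 higher, 315 lower). These 2 fits gave 5 and 6 synthetase genes that rose in place of 0, and 27 and 23 zinc finger risers of chromosome 19 in place of 16. PRKRA had an adjusted p of 0.0979 in the first and passed in the second (0.0413). Deviations of same-numbered libraries correlated by 0.192, 0.089 and 0.199, against -0.187 to -0.01 for other pairs, so each library went best with its own number, but nothing in the labels says that a number marks a shared day or culture, and 1 pair is under 0.1. Of 99 named genes that passed, 54 passed without each 1 library and 23 with all 12 libraries in 1 model. In every alternative fit that tested the gene, 23 passed. The 2 stricter thresholds (adjusted p under 0.01, log2 change of 1) were left out of that count. Zinc finger genes named after their values had been seen are among the 99. None of 118 named genes changed direction between the main fit and an alternative where either of these passed. Changes of sign where neither passed were not counted. EIF2AK2 had such a change (0.012 in the main fit, -0.057 to 0.046 over the alternatives).

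The interaction, 33 genes, gave 29 to 46 with RLE factors, library size only or a mean of 50 counts, 178 with DESeq2, 275 with no filter, 271 with the replicate block (143 higher and 128 lower in MDA-MB-468), 9 at an adjusted p under 0.01, and 9 (without MDA-MB-468 sgPACT-2 replicate 1) to 168 (without HCC1806 sgPACT-2 replicate 1) when 1 library was left out. Where these values moved, the cause was not tested.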

Other observations

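Zinc finger genes of chromosome 19 stood out among the risers, and were looked at only after their values had been seen. Of 243 tested genes on chromosome 19 with ZNF or ZFP symbols, 16 rose (6.58%), 0 fell, 164 had positive values and the median log2 fold change was 0.073. Of 248 such genes on other chromosomes, 2 rose (0.806%), ZNF354A and ZNF462. Other protein-coding genes of chromosome 19 had 14 risers and 3 fallers of 872 (1.61% up), with a median of -0.052, and 1.68% of all protein-coding genes rose. Most of these genes encode KRAB zinc finger proteins, known as repressors of transposable elements. ZFP30 went from 32.1, 30.2 and 28.97 CPM with sgNTA to 61.00, 51.7 and 64.1 CPM with sgPACT-2 (log2 fold change 0.95, SE 0.084, adjusted p = 7.02e-09), and ZNF404 from 7.98, 8.26 and 10.1 CPM to 16.1, 16.2 and 17.4 CPM (log2 fold change 0.91, SE 0.11, adjusted p = 6.9e-06). The groups were apart in both. ZNF699 rose by 1.45 (SE 0.21), ZNF582 by 0.79 (SE 0.13), ZFP82 by 0.55 (SE 0.083) and ZNF45 by 0.45 (SE 0.074). ZNF773 was the least firm, losing its call in all 6 fits that left out 1 library (adjusted p up to 0.173). The chromosome 19 risers numbered 16 with GC and length trends removed (median 0.051), 13 to 16 when 1 library was left out and 3 with all 12 libraries in 1 model. ZFP30 and ZNF781 overlap each other, and both of them and ZNF607 overlap AC093227.2, so their reads are not independent.

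A few genes of other types moved strongly, and their reads are uncertain because a near-identical or overlapping gene exists. ROCK1P1, a pseudogene copy of the kinase gene ROCK1, went from 3.90, 4.55 and 4.26 CPM to 26.4, 28.9 and 31.6 CPM (log2 fold change 2.77, SE 0.11, adjusted p = 1.91e-16). The antisense gene AC107959.3 went from 0.125, 0.139 and 0.0893 CPM to 1.58, 1.88 and 1.43 CPM (log2 fold change 3.77, SE 0.47, adjusted p = 5.8e-06), and LURAP1L-AS1 rose by 1.67 (adjusted p = 0.0334). AC007285.2 fell by 1.55 on the log2 scale, AC005077.4 by 0.42 and AC098934.1 by 0.41; these 3 and LURAP1L-AS1 lost their calls in most of the fits that left out 1 library (adjusted p up to 0.294 for AC005077.4). AC005077.4 also lost its call with GC and length trends removed (adjusted p = 0.115). SPX, the gene of the peptide hormone spexin, had 0 counts in all 3 sgNTA libraries. With sgPACT-2 SPX read 0.915, 1.07 and 0.755 CPM, at least 12.1-fold higher against a floor of 3 counts per library. AC034213.1 had at most 3 counts in a control library and was at least 10.7-fold higher.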
